A study of Mus musculus with 12 samples.

Results

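Newly developed Treg of wt mice were taken as the 4 libraries whose labels give the wild type genotype, out of 12 libraries in all. They held 83202 of the 199248 UMIs of the series, a UMI being a random tag that marks 1 Tcra cDNA molecule. Each library came from 1 mouse aged 3 weeks, from which 100000 CD4+CD8-Thy1.1+GFP+ thymocytes had been sorted. All mice were B6 and carried the Rag2-Gfp transgene, the Foxp3-Thy1a reporter, the Kaa Tcrb transgene and 1 null allele of Tcra. The wt mice had no further mutation. The other 8 libraries came from Il2° mice (Il2null, n = 4) and Il15° mice (Il15null, n = 4) of the same transgenic background. In these cells Thy1.1 stands for Foxp3 expression and GFP for recent activity of Rag2, so that Treg which had returned from the periphery were left out by the sort. The Kaa chain is a TCRβ of the response to a myelin antigen and is the same in every cell. The repertoire described is thus that of 1 β chain from a transgene, and the null allele leaves 1 functional Tcra allele per cell.

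The TCRα chain is made by joining a V segment (TRAV) to a J segment (TRAJ), with bases removed and added at the joint, and the joint encodes the CDR3 loop that faces the peptide. Rearrangement of the mouse Tcra locus is sequential. V segments near the J cluster are joined first to J segments at its V side, and later rounds delete that joint and connect V segments further out to J segments closer to the constant region. In B6 mice a stretch of V segments is present in several copies, which the names mark as D copies and N copies beside the original ones. Thymocytes whose receptor binds self-peptide comparatively strongly can become Treg, and iNKT and MAIT cells are other thymic lineages, each with a set TCRα chain.

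The wt libraries held 25980, 23915, 15977 and 17330 UMIs in replicates 1 to 4, which is between 0.160 and 0.260 UMIs per sorted cell. These UMIs fell on 7223, 6687, 3489 and 4812 nucleotide sequences. A clonotype is used here as the V segment, the CDR3 amino acids and the J segment, and the 4 mice together had 11570 clonotypes. A share of 3 UMIs, the upper limit that a count of 0 allows, was between 0.0115% and 0.0188% of a library, and such limits cover counting error only. The set chains of iNKT cells (TRAV11 with TRAJ18 and 15 residues) and MAIT cells (TRAV1 with TRAJ33 and 12 residues) held 36 and 50 of the 83202 UMIs, or 0.0433% and 0.0601%.

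The libraries did not share sequences evenly. wt replicates 1 and 2 had 2951 nucleotide sequences in common and wt replicates 3 and 4 had 2227, whereas the other 4 pairs of wt libraries had between 842 and 1175. Of the sequences present in exactly 2 of the 12 libraries, 1322 lay in wt replicates 1 and 2, with a mean of 1.33 UMIs in replicate 1 and 3.33 in replicate 2. A further 692 lay in wt replicates 3 and 4, with 3.45 and 1.75 UMIs, 888 in wt replicate 2 and Il2° replicate 1, with 1.18 and 3.47 UMIs, 356 in wt replicate 4 and Il2° replicate 4, with 3.53 and 1.05 UMIs, and 125 in wt replicate 3 and Il2° replicate 1, with 3.61 and 1.18 UMIs. The other 4 wt pairs had between 25 and 58 such sequences. How these sequences came to lie in 2 libraries was not tested. Sequences with 1 UMI in a library and at least 2 UMIs in another made up 21.8%, 20.8%, 5.04% and 17.02% of the sequences of wt replicates 1 to 4 and 6.06%, 5.81%, 1.10% and 4.73% of their UMIs. They are called shared single UMIs below, and some results that rest on rare sequences are also given without them. Without them wt replicates 1 and 2 still had 1342 sequences in common and wt replicates 3 and 4 had 1492, against 654 to 776 in the other 4 wt pairs.

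The leading clonotypes show how the chains of this repertoire are built. The largest by its mean share of UMIs was TRAV10 with TRAJ31 and the CDR3 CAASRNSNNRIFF, which held 1.09%, 1.71%, 2.41% and 1.83% of the UMIs in replicates 1 to 4 (1.76% ± 0.54, SD, n = 4). It was encoded by 11 nucleotide sequences, of which the first 2 below held 47.3% and 44.3% of its UMIs and were found in all 4 mice. They differ in 1 base. Capitals mark the bases that match neither the germline V nor the germline J segment in an exact reading from either end, and the germline TRAJ31 segment (chr14:54187895-54187951, plus strand, GRCm38) is given for comparison. The joint is read almost wholly from the germline, with 26 bases from TRAJ31.
TRAV10-TRAJ31, sequence 1: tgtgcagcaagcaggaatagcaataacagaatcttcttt
TRAV10-TRAJ31, sequence 2: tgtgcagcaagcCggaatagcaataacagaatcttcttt
TRAJ31, germline: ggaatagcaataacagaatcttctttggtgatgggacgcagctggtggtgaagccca

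The second clonotype, TRAV4D-3 with TRAJ37 and the CDR3 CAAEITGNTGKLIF, held 1.03%, 0.924%, 1.76% and 0.969% (1.17% ± 0.39, n = 4). Its leading sequence, with 85.9% of its UMIs, had 1 base outside the germline segments.
TRAV4D-3-TRAJ37: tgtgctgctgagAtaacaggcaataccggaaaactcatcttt

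The next clonotype in size, TRAV16 with TRAJ12 and 15 residues, was uneven between mice. It held 1.65% and 1.41% in replicates 1 and 2 and 0.376% and 0.462% in replicates 3 and 4 (0.974% ± 0.650, n = 4). Its 3 leading sequences held 68.2%, 16.9% and 10.4% of its UMIs and were found in all 4 mice. Each of the others differed from the first in 1 base, the base in capitals.
TRAV16-TRAJ12, sequence 1: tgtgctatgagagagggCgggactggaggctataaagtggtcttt
TRAV16-TRAJ12, sequence 2: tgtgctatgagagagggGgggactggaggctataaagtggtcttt
TRAV16-TRAJ12, sequence 3: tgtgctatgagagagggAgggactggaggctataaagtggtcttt

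The clonotype with the most nucleotide sequences was the fifth in size, TRAV4D-4 with TRAJ15 and the CDR3 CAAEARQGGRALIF. It held 0.547%, 0.782%, 0.745% and 0.617% (0.673% ± 0.110, n = 4) and was encoded by 21 sequences, 6 of them found in all 4 mice. The leading 3 held 20.7%, 15.9% and 11.9% of its UMIs, and their capitals show that different added bases gave the same residues.
TRAV4D-4-TRAJ15, sequence 1: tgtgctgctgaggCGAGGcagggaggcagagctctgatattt
TRAV4D-4-TRAJ15, sequence 2: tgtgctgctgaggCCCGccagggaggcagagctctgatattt
TRAV4D-4-TRAJ15, sequence 3: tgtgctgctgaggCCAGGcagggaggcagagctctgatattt

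The other 6 of the 10 leading clonotypes had mean shares between 0.442% and 0.809%. TRAV4D-4 with TRAJ17 (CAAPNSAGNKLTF) was the most even of the 10 between mice, at 0.862%, 0.803%, 0.764% and 0.808% (0.809% ± 0.041, n = 4). TRAV12N-3 with TRAJ12 (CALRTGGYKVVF) and TRAV4D-3 with TRAJ34 (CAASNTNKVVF) had leading sequences with no base outside the germline, and the V and J matches even overlapped in 1 and 2 bases.
TRAV12N-3-TRAJ12: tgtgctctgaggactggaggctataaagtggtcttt
TRAV4D-3-TRAJ34: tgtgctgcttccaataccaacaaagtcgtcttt

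TRAV usage was concentrated. The wt tables held 104 V names, 87 of them present in all 4 mice, and 6 segments were enough to hold 50% of the UMIs. TRAV4D-3 (chr14:52899969-52900470, plus strand) took 18.1%, 17.9%, 21.7% and 18.4% of the UMIs (19.0% ± 1.8, n = 4), and the next segment reached at most 8.96% in a mouse. TRAV4N-3 (chr14:53210906-53211407) followed with 8.26% ± 0.63, TRAV4D-4 with 7.22% ± 0.53, TRAV7-3 with 5.75% ± 0.86, TRAV12N-3 with 5.71% ± 0.91 and TRAV7-2 with 5.44% ± 0.31. The ranges over mice overlapped between neighbours from TRAV4N-3 to TRAV7-2, so that this order is within the spread. Below TRAV7-2 the shares dropped, to TRAV10 at 2.80% ± 0.66, TRAV12-3 at 2.47% ± 0.26, TRAV3D-3 at 2.47% ± 0.29 and TRAV14-1 at 2.18% ± 0.20, whose ranges overlapped. The 10 leading segments held 61.3% ± 1.4 of the UMIs, and 51.3% when each clonotype was counted once. TRAV4D-3 fell to 14.7% when counted this way, and TRAV10 to 1.23%.

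By family, TRAV4 held 35.5% ± 2.3, TRAV7 18.9% ± 1.5, TRAV12 10.7% ± 0.9 and TRAV6 9.0% ± 0.3, and the ranges of these 4 families did not overlap. TRAV4D-3 and TRAV4N-3 have identical germline coding sequences over 331 bases. Of the sequences deposited under TRAV4N-3, 25.0% stood under TRAV4D-3 in another wt mouse, so the names of this pair of copies cannot be told apart by the coding sequence. Joined under 1 name with TRAV4-3, the 3 copies held 26.4%, 25.7%, 30.5% and 27.7% (27.6% ± 2.1, n = 4). No aligned base differed either between TRAV4D-4 and TRAV4N-4, TRAV7-2 and TRAV7D-2, or TRAV6-6 and TRAV6D-6. In these pairs of copies, 2, 0 and 1 sequences stood under both names.

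**Figure D1:**
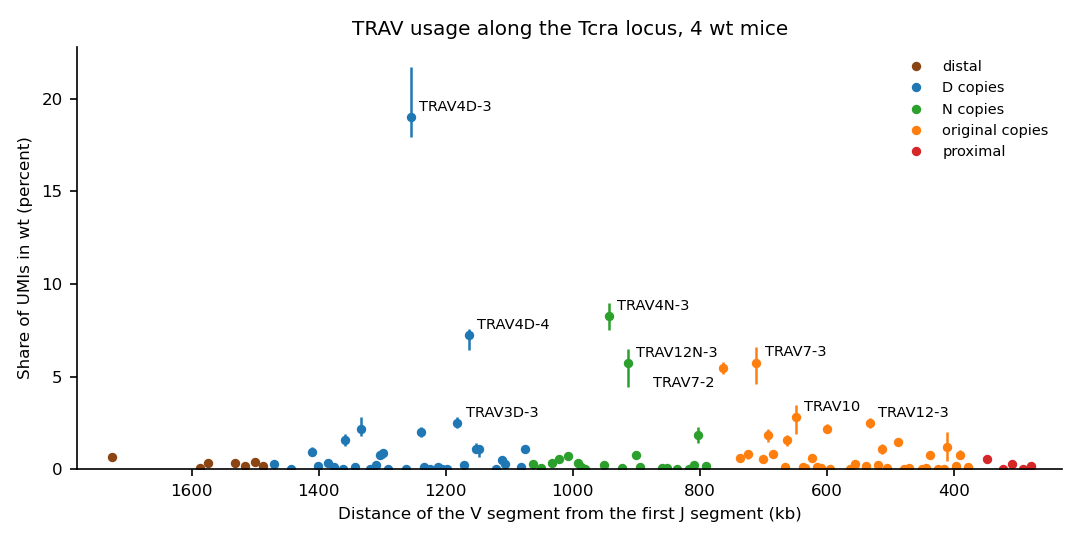
Share of UMIs (y axis, percent) of each placed TRAV segment against its distance from the first J segment (x axis, kb, J cluster to the right), with points for the mean of 4 wt mice, lines from the lowest to the highest mouse and colours for the blocks of the locus. TRAV4D-3 stands alone at 19.0%, and the segments nearest to and farthest from the J cluster lie under 1%.

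Along the locus, most UMIs lay in the blocks of D, N and original copies between the ends. The 39 annotated D copies held 43.0% ± 2.6 of the UMIs, the 40 original copies 32.5% ± 1.2 and the 34 N copies 19.9% ± 1.2. TRAV1 and TRAV2, the segments farthest from the J cluster, held 0.732% ± 0.059 together. The 5 segments TRAV17 to TRAV21/DV12, nearest to it, held 1.14%, 1.18%, 0.926% and 0.796% (1.01% ± 0.18, n = 4). Most of this was TRAV17 at 0.566%, which rose to 1.30% with each clonotype counted once. TRAV16, at 411 kb from the J cluster, held 1.99%, 1.70%, 0.457% and 0.606%. The TRAV16-TRAJ12 clonotype described above made up 83.0%, 83.0%, 82.2% and 76.2% of its UMIs, and counted once per clonotype TRAV16 fell to 0.324%.

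TRAJ usage was broader. UMIs were found on 44 J segments, and 8 of them held 50%. TRAJ31 led with 8.56% ± 1.33, before TRAJ12 at 7.89% ± 1.02, TRAJ9 at 6.51% ± 1.06, TRAJ23 at 6.17% ± 0.56, TRAJ37 at 5.89% ± 0.61, TRAJ22 at 5.83% ± 1.10, TRAJ15 at 5.16% ± 0.29 and TRAJ27 at 5.01% ± 0.28. Every neighbour in this order overlapped in range with the next, and the first gap came after TRAJ27, before TRAJ21 at 4.19% ± 0.10 and TRAJ17 at 4.06% ± 0.33. TRAJ25 held 0.0170%, at the limit of 3 UMIs, and 7 of the 51 J segments annotated as functional (TRAJ3, TRAJ19, TRAJ20, TRAJ29, TRAJ41, TRAJ46 and TRAJ59) had no UMI in wt.

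**Figure D2:**
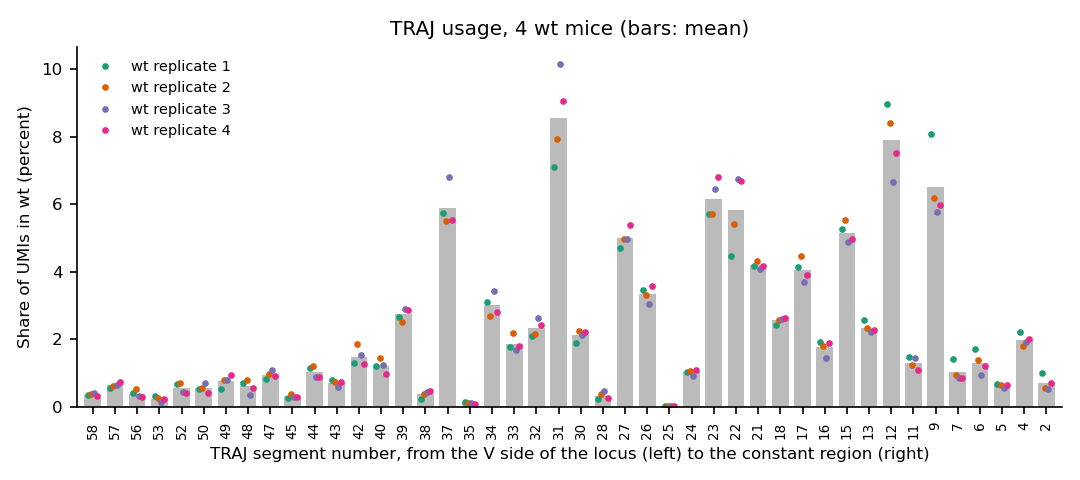
Share of UMIs (y axis, percent) of each TRAJ segment in the order of the locus (x axis, segment number, V side to the left), with bars for the mean and points for the 4 wt mice. No segment from TRAJ58 to TRAJ40 has a mean above 1.49%, and the 10 leading segments lie between TRAJ37 and TRAJ9.

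In windows of the J cluster, TRAJ61 to 48 at the V side held 4.05%, 4.66%, 3.82% and 3.94% (4.12% ± 0.38, n = 4). TRAJ47 to 33 held 19.7% ± 1.0, TRAJ32 to 18 held 41.5% ± 3.4 and TRAJ17 to 2 held 34.7% ± 3.6. The window at the V side was the least used in each mouse. The ranges of the last 2 windows overlapped, with TRAJ17 to 2 at 39.4% against 37.3% for TRAJ32 to 18 in replicate 1 and TRAJ32 to 18 higher in the other 3 mice.

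The position of the V segment was set against that of the J segment over all segments and over those without copies. Over all segments, the mean distance of the V segment from the J cluster was 953 kb ± 35 in joints to TRAJ61 to 48 and 959 kb ± 26 in joints to TRAJ17 to 2. The difference of -5.72 kb ± 25.9 was within the spread, with the V side window lower in 3 of 4 mice (exact 2-sided sign-flip permutation test over 4 mice, p = 0.625, smallest possible p = 0.125). Without wt replicate 1 the difference changed sign, to 2.71 kb. Among the 15 segments with no D or N copy in these tables, which held 4.14% of the UMIs, the V side window differed by -911, -945, -1082 and -927 kb in replicates 1 to 4. The mean difference was -966 kb ± 79, and the V side window was lower in 4 of 4 mice (exact 2-sided sign-flip permutation test, p = 0.125, the smallest possible with 4 mice). These 15 segments took in all 7 of the distal block, beyond the D copies, and all 5 from TRAV17 to TRAV21/DV12. Their difference is therefore not separate from the ratios of these blocks given below.

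The segments nearest to the J cluster were joined to its V side more often than the product of the shares. The block from TRAV17 to TRAV21/DV12 was found in joints to TRAJ61 to 48 at 8.98 ± 0.61 times the product of the shares (n = 4) and in joints to TRAJ17 to 2 at 0.0593 times. Of its UMIs, 330 lay in TRAJ61 to 48, 354 in TRAJ47 to 33, 160 in TRAJ32 to 18 and 19 in TRAJ17 to 2. For TRAV17, 43.0% ± 9.2 of the UMIs lay in TRAJ61 to 48 and 2.61% ± 0.57 in TRAJ17 to 2. TRAV19 had 27.8% ± 8.0 and 0.807% in these windows, and 64.1% ± 9.3 in TRAJ47 to 33. TRAV21/DV12 had 32.6% ± 17.9 in TRAJ61 to 48 and 41.8% ± 23.3 in TRAJ32 to 18. The distal block was at 0.0407 ± 0.0330 times the product in TRAJ61 to 48, where neither TRAV1 nor TRAV2 had a UMI, and at 0.689 ± 0.242 in TRAJ47 to 33. It was above the product in TRAJ32 to 18 (1.26 ± 0.15) and at it in TRAJ17 to 2 (1.01 ± 0.25).

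Among the copies, D copies lay above the product of the shares in TRAJ61 to 48 (1.41 ± 0.08) and TRAJ47 to 33 (1.39 ± 0.05) and below it in TRAJ17 to 2 (0.819 ± 0.038), although they are farther from the J cluster than the N copies. The N copies ran the other way, at 0.270 ± 0.103, 0.430 ± 0.074, 0.871 ± 0.047 and 1.56 ± 0.02 from the V side window to the last. The pair TRAV4D-3 and TRAV4N-3 carried much of this. Of the UMIs under either name, TRAV4N-3 had 6.31% ± 4.73 in TRAJ61 to 48, 5.67% ± 1.40 in TRAJ47 to 33, 25.8% ± 2.8 in TRAJ32 to 18 and 70.1% ± 4.5 in TRAJ17 to 2. As their coding sequences are identical, use of the copies and assignment of the names cannot be told apart. The pair TRAV12-3 and TRAV12N-3, with 12 differing bases of 353, had opposite J profiles as well. TRAV12-3 had 71.1% ± 3.9 of its UMIs in TRAJ47 to 33 and 5.04% ± 0.75 in TRAJ17 to 2, and TRAV12N-3 had 12.2% ± 2.9 and 54.2% ± 1.6. Only 24 sequences stood under both of these names in the 4 mice. This pair was chosen after its values were seen.

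Among the UMIs of wt, V and J segments were not combined independently. A pair was tested where the product of the V share and the J share gave a mean of at least 5 expected UMIs per mouse, which held for 775 pairs with 84.1% ± 1.1 of the UMIs. By edgeR's quasi-likelihood test with Benjamini-Hochberg adjustment, 124 pairs were higher than the product (16.0% of those tested) and 151 were lower (19.5%), or 275 in either direction (35.5%). The higher pairs held 51.6% ± 0.9 of the UMIs, where the product gave 18.8% ± 0.6, and the lower pairs held 9.40% ± 0.45 where the product gave 30.8% ± 0.8. Of the higher pairs, 113 were above the product in 4 of 4 mice, and of the lower pairs 150 were below it in 4 of 4. The test and these counts take the 4 libraries as independent, although replicates 1 and 2 and replicates 3 and 4 are linked by shared sequences. Whether this narrows the spread between mice was not tested. With shared single UMIs left out, 113 of the 124 higher and 98 of the 151 lower pairs were called again. The lower calls were the less stable ones, since their number was 31, 51, 88 and 36 without wt replicates 1, 2, 3 and 4. DESeq2 called none of them, but it gave no adjusted p for most pairs, and limma called more pairs lower than edgeR.

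The pairs farthest above the product were TRAV16-TRAJ12, TRAV6D-5-TRAJ22 and TRAV10-TRAJ31. TRAV10-TRAJ31 had 349, 517, 486 and 427 UMIs in replicates 1 to 4, a total of 1779 where 192 were expected. It lay 9.33 ± 0.59 times above the product (n = 4, log2 ratio 3.21, adjusted p by edgeR 3.2e-39), and 78.5% of its UMIs belonged to the leading clonotype. TRAV16-TRAJ12 had 434, 350, 60 and 80 UMIs and a ratio of 10.5 ± 1.3 (log2 ratio 3.36, adjusted p by edgeR 2.3e-33), and 98.1% of it was 1 clonotype. With all of TRAV16 in this pair the ratio could reach no more than 11.1, 11.9, 15.02 and 13.3 in replicates 1 to 4, so it lies near its upper limit and cannot follow the difference in UMIs between the mice. TRAV6D-5-TRAJ22, with 152, 178, 151 and 198 UMIs and a ratio of 9.55 ± 1.53 (log2 ratio 3.23, adjusted p by edgeR 4.0e-32), was spread over 25 clonotypes, the largest with 50.4%.

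The next 7 pairs, TRAV6D-5-TRAJ16, TRAV1-TRAJ21, TRAV12-3-TRAJ42, TRAV6D-7-TRAJ15, TRAV7N-5-TRAJ23, TRAV12-3-TRAJ37 and TRAV14-2-TRAJ27, had mean ratios between 7.04 and 8.84 and log2 ratios between 2.78 and 3.08. In each of them 1 clonotype held between 46.2% and 90.4% of the UMIs. Large single clonotypes were therefore part of these values. When each clonotype was counted once, only 183 pairs had enough expected clonotypes for a test, and 42 were higher and 70 lower. Of the 45 higher pairs that could be tested again this way, 35 were called higher, and of the 72 lower pairs 57 were called lower.

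At the other end, 44 of the lower pairs had no UMI in any of the 4 mice. The 5 farthest below the product, all of them without a UMI, were TRAV12-3-TRAJ22 with 115 expected UMIs in the 4 mice, TRAV10-TRAJ27 with 113, TRAV16-TRAJ31 with 85.8, TRAV4N-3-TRAJ40 with 83.3 and TRAV7D-6-TRAJ37 with 76.7. Set against a limit of 3 UMIs over the 4 mice, they were at least 38.5-fold, 37.6-fold, 28.6-fold, 27.8-fold and 25.6-fold lower than the product. The adjusted p of these 5 by edgeR lay between 0.0053 and 0.0097, and none of the 5 calls held without wt replicate 1 or without wt replicate 4. Where most of a V segment lies in 1 pair, as for TRAV10 with 1779 of its 2250 UMIs in TRAJ31, its other pairs come below the product by arithmetic, and 11 of the 28 tested pairs of TRAV10 were called lower and 1 higher.

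TRAV4D-3, with 42 tested pairs, had 17 higher and 16 lower, and these followed the J order. Of those with J segments from TRAJ58 to TRAJ32, 12 were higher and 1, TRAJ40, was lower, and from TRAJ31 to TRAJ2 5 were higher and 15 lower. Its largest pair was TRAV4D-3-TRAJ37 with 2477 UMIs, 2.68 ± 0.15 times the product (log2 ratio 1.42, adjusted p by edgeR 7.3e-24). TRAV4D-3-TRAJ32 had 1315 UMIs at 3.64 ± 0.45 times the product, and both pairs were also called with each clonotype counted once. In contrast, TRAV4D-3-TRAJ12 had 162 UMIs at 0.123 ± 0.083 times the product (log2 ratio -3.001, adjusted p by edgeR 1.0e-10). TRAV4N-3, with the same coding sequence, took 70.1% ± 4.5 of the UMIs under either name in TRAJ17 to 2. Use of the copies and assignment of the names therefore cannot be told apart in these pairs either. Seen from the J side, TRAJ37 was lower in 21 and higher in 4 of its 39 tested pairs. TRAV4D-3-TRAJ37 held 2477 of the 4852 UMIs of TRAJ37, so the sum of the other TRAJ37 pairs comes below the product by arithmetic. The number of lower TRAJ37 pairs therefore cannot be read apart from the size of TRAV4D-3-TRAJ37. These pairs of TRAV4D-3 and TRAJ37 were chosen after their values were seen.

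**Figure D3:**
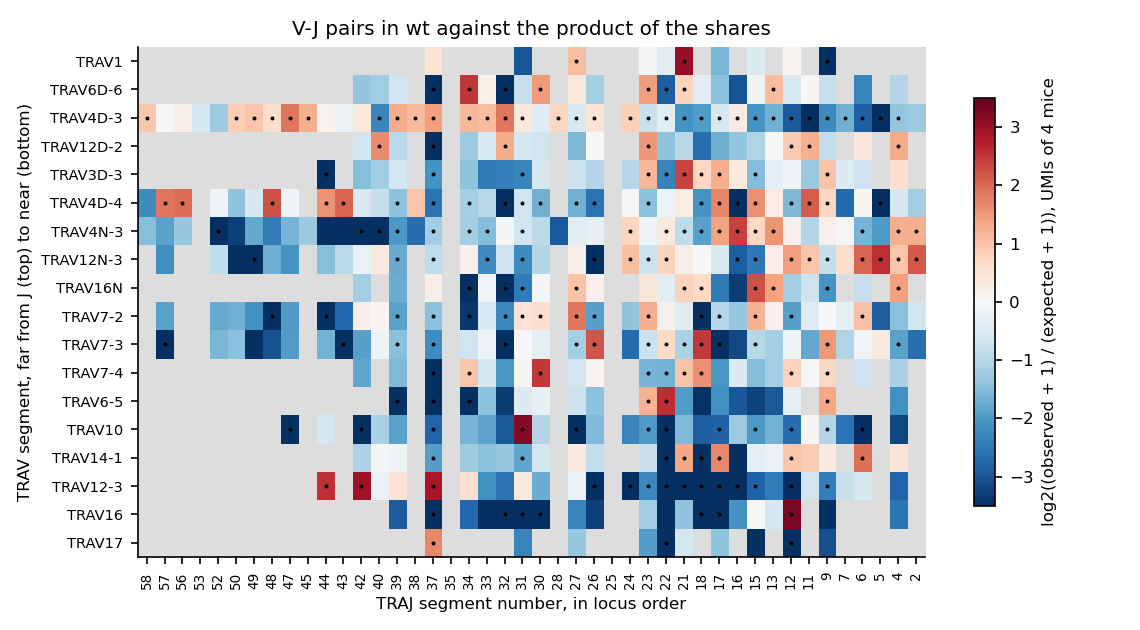
V-J pairs in wt as log2((observed + 1) / (expected + 1)) of the UMIs of 4 mice (colour, cut at 3.5 in either direction), for the 15 leading TRAV segments, TRAV1, TRAV16 and TRAV17 from far to near (y axis) and the TRAJ segments in locus order (x axis, number). Dots mark pairs called by edgeR and grey pairs had too few expected UMIs, and TRAV4D-3 changes from red to blue along the J cluster while TRAV4N-3 and TRAV12N-3 change from blue to red.

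The CDR3 was short and of even length. Over all sequences, in frame or not, the mean was 13.1 residues in each mouse (13.12 ± 0.02, n = 4). CDR3 of 13 residues held 31.4%, 31.6%, 33.5% and 34.1% of the UMIs (32.6% ± 1.4) and CDR3 of 14 residues 30.7% ± 0.1, followed by 12 residues at 16.8% ± 0.4, 11 at 8.34% ± 0.27 and 15 at 7.30% ± 1.03. Lengths of 15 were higher in replicates 1 and 2, at 8.06% and 8.30%, than in replicates 3 and 4, at 6.503% and 6.31%, and the TRAV16-TRAJ12 clonotype, which is higher in the same mice, has this length. In frame, the length differed between J segments. Leaving out TRAJ7, TRAJ44, TRAJ47 and TRAJ25, which were nearly always out of frame, the means ran from 11.5 ± 0.2 residues for TRAJ43 and 11.7 ± 0.1 for TRAJ26 to 14.49 ± 0.34 for TRAJ53, 14.53 ± 0.15 for TRAJ28 and 15.2 ± 0.7 for TRAJ2.

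Few bases had been added at the joint. By the deposited V and J ends, which allow mismatches, 32.5% ± 1.0 of the UMIs had no base between V and J, and in 21.1% ± 0.5 the V and J ends shared bases. The share with 1, 2, 3 and 4 inserted bases was 14.5% ± 0.3, 15.9% ± 0.1, 14.03% ± 0.54 and 10.7% ± 0.4, and 1.98% ± 0.17 had 8 or more. An exact match of each joint to the germline segments gave a higher mean, 2.99 inserted bases per sequence against 2.12 by the deposited ends.

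**Figure D4:**
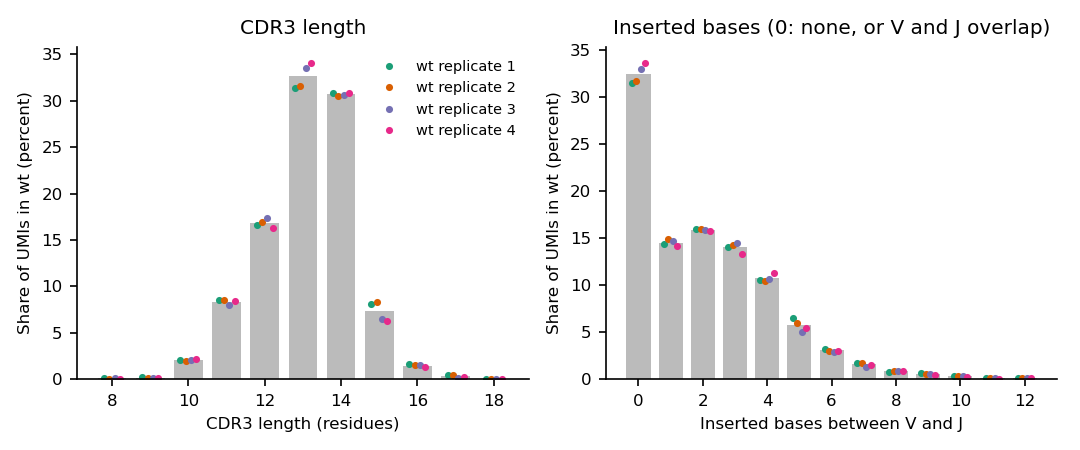
Share of UMIs (y axes, percent) by CDR3 length in residues (left) and by the number of inserted bases between V and J (right), with bars for the mean and points for the 4 wt mice. Lengths of 13 and 14 residues hold 32.6% and 30.7%, and joints without inserted bases 32.5%.

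The residues of the CDR3 centre, left after the first 3 and the last 4 residues, were mostly small and polar. Glycine made up 22.9%, 22.3%, 21.4% and 21.7% of them (22.1% ± 0.7, n = 4), asparagine 16.3% ± 0.6 and serine 15.8% ± 0.6, followed by threonine at 7.47% ± 0.13, tyrosine at 6.97% ± 0.30 and alanine at 6.61% ± 0.20. Hydrophobic residues (A, C, F, I, L, M, V, W and Y) made up 21.2% ± 0.4 and charged ones 11.4% ± 0.3, with 6.06% ± 0.27 positive and 5.30% ± 0.13 negative. A cysteine in the centre, a residue known to mark some strongly self-reactive receptors, was present in 0.236% ± 0.077 of the CDR3. The hydrophobic share differed between J segments, at 5.91% in joints to TRAJ31 and 6.03% in those to TRAJ34, against 46.1% in joints to TRAJ26, 40.4% to TRAJ30 and 39.4% to TRAJ9.

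By position in CDR3 of 13 residues, serine led at position 4 with 32.9% ± 0.9, glycine at position 5 with 17.8% ± 0.4 and serine at positions 6 and 7 with 28.3% ± 1.4 and 31.4% ± 1.8. Hydrophobic residues made up 11.2% ± 0.7 at position 6 and 17.6% ± 2.2 at position 7, the centre of the loop. In CDR3 of 14 residues position 5 was the most varied, with 11 residues over 5%, and alanine led there with 21.1% ± 2.5. Toward the J end, lysine led at position 10 of 13 with 60.6% ± 1.5 and at position 11 of 14 with 66.8% ± 1.9.

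No clonotype dominated a mouse. The largest held 1.65%, 1.71%, 2.41% and 1.83% of the UMIs, and it was the TRAV10-TRAJ31 clonotype in replicates 2, 3 and 4 and the TRAV16-TRAJ12 clonotype in replicate 1. The 10 largest held 8.20% ± 0.69 and the 100 largest 26.6% ± 1.6. To reach 50% of the UMIs, 564, 615, 421 and 478 clonotypes were needed, and the Gini index, which is 0 for equal clonotypes and nears 1 when a single clonotype holds all UMIs, was 0.548 ± 0.030. At a common depth of 15977 UMIs the mice had 4752, 4666, 2931 and 3859 clonotypes. Without shared single UMIs, at 15801 UMIs, they had 4065, 4032, 2815 and 3307, so that replicate 3 had the fewest in both counts.

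Most clonotypes were small but not single in UMIs, which count cDNA molecules and not cells. Clonotypes of 3 to 10 UMIs made up 51.8% ± 9.2 of the clonotypes and 47.97% ± 4.89 of the UMIs. Those of 1 UMI made up 30.4% ± 7.2 of the clonotypes with 6.62% ± 2.00 of the UMIs, more than the 11.2% ± 3.1 of clonotypes at 2 UMIs. The class of 1 UMI takes in shared single UMIs, and the shares by class are not given without them. Leaving them out lowered the clonotypes of replicates 1 to 4 from 5757, 5402, 2931 and 3956 to 4560, 4395, 2815 and 3334. The excess of the class of 1 UMI over that of 2 UMIs can therefore not be read as clone size alone. Between 6 and 11 clonotypes per mouse exceeded 100 UMIs and held 7.38% ± 0.95 of the UMIs.

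The overlap between mice was large by UMIs and small by clonotypes. Of the 11570 clonotypes, 7124 (61.6%) were found in 1 mouse, 3064 (26.5%) in 2, 734 (6.34%) in 3 and 648 (5.60%) in all 4. The 648 held 41.4%, 41.0%, 48.3% and 44.6% of the UMIs of replicates 1 to 4 (43.8% ± 3.4, n = 4). Without shared single UMIs, 453 clonotypes were found in all 4 mice and held 41.1% ± 1.9, and with at least 2 UMIs asked in each mouse 447 did and held 43.0% ± 2.1. With shared single UMIs left out, 8024 of 10849 clonotypes (73.96%) were found in 1 mouse and 1848 (17.03%) in 2. Clonotypes found in 1 mouse then held 29.52% of the UMIs on average, against 21.85% with all UMIs. With all UMIs, wt replicates 1 and 2 shared 2665 clonotypes and wt replicates 3 and 4 shared 1984. The other 4 wt pairs shared 971 to 1258. The number found in 2 mice therefore cannot be read as sharing between unlinked mice alone. By nucleotides, 504 V, CDR3 and J sequences were found in all 4 mice, and 334 without shared single UMIs. Of the 648, 117 used TRAV4D-3, 94 TRAV12N-3, 43 TRAV4N-3 and 41 TRAV7-2, and 53 used TRAJ12. These were 7.39%, 11.3%, 5.16% and 9.09% of the clonotypes of the 4 TRAV segments and 7.44% of those of TRAJ12. Clonotypes are set apart by V name, and over the 4 mice 283 sequences stood under both TRAV4D-3 and TRAV4N-3. Such a sequence counts as different clonotypes, which can lower the number found in all 4 mice and raise the number found in 1. The overlap is not given with these copies joined.

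Clonotypes found in all 4 mice had fewer inserted bases. Within each mouse and counted once, they had 1.88 ± 0.02 inserted bases, and those found in 1 mouse had 3.06 ± 0.28, a difference of -1.18 ± 0.30 with the same sign in 4 of 4 mice (exact 2-sided sign-flip permutation test, p = 0.125, the smallest possible). By an exact match to the germline the values were 2.58 ± 0.03 and 4.53 ± 0.11, and the difference was larger, at -1.95 ± 0.08 with the same sign in 4 of 4 mice. Since rare clonotypes are found in fewer mice by sampling alone, the difference was also taken at equal UMI count. It was -1.37 ± 0.53 for clonotypes of 1 UMI, -0.986 ± 0.368 at 2 UMIs and -0.832 ± 0.253 at 3 to 10 UMIs, lower in 4 of 4 mice each time. Over 10 UMIs it was 0.0193 ± 1.00 and lower in 2 of 4 mice, but there a mouse had as few as 3 clonotypes found in it alone. The CDR3 was shorter by 0.191 ± 0.065 residues in clonotypes of all 4 mice, but clonotypes of 1 UMI, at -0.529 ± 0.240, were the only class with this sign. The difference was 0.0322 ± 0.2454 at 2 UMIs, 0.0360 ± 0.0686 at 3 to 10 UMIs and 0.284 ± 0.526 over 10 UMIs. The class of 1 UMI takes in shared single UMIs, which can also count a clonotype as found in a further mouse. None of the differences at equal UMI count is given without them. Clonotypes found in 1 mouse were counted over wt alone and can include sequences shared with an Il2° library.

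The same order by inserted bases was seen between the linked pairs of wt libraries. For this, wt replicates 1 and 2 were set against wt replicates 3 and 4, and the share of the sequences of a mouse that also lay in the other pair was counted. Both pairs hold a library that shares sequences with Il2° replicate 1, as given above. It was 32.7% ± 9.0 for sequences with no inserted base, 28.3% ± 8.7 with 3, 12.98% ± 5.86 with 5 and 7.84% ± 4.08 with 8 or more. It fell from no inserted base to 8 or more in each of the 4 mice, as the plot of sharing by inserted bases shows.

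**Figure D5:**
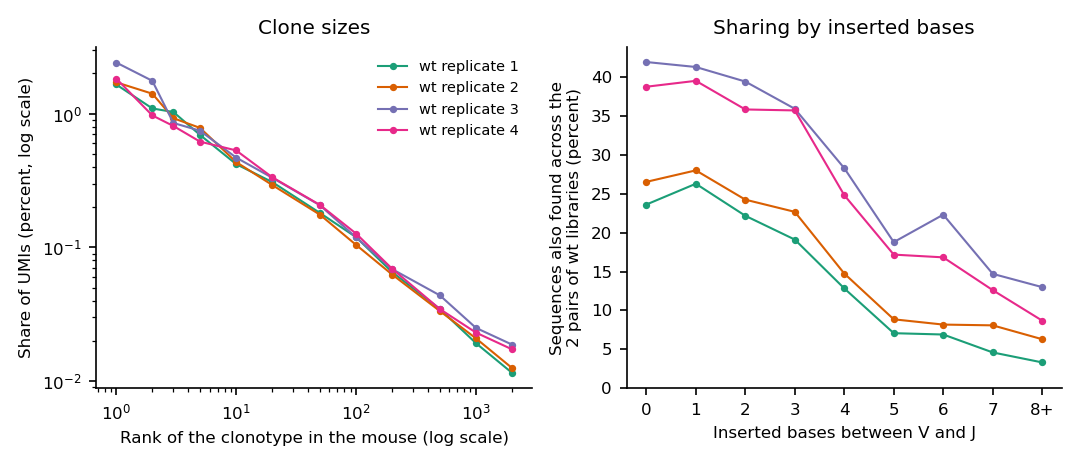
Left, share of UMIs (y axis, percent, log scale) against the rank of the clonotype (x axis, log scale) in each wt mouse, and right, percent of the nucleotide sequences of each mouse that were also found in a library of the other linked pair (y axis) by inserted bases (x axis, 8+ for 8 or more). The 4 curves of clone size lie close together, and sharing drops from between 23.6% and 41.9% without inserted bases to between 3.33% and 13% with 8 or more.

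Shared clonotypes were also encoded in more ways. Over the 4 mice, clonotypes found in 1, 2, 3 and 4 mice had a mean of 1.03, 1.28, 2.09 and 3.72 nucleotide sequences. Of those found in all 4 mice, 92.6% had 2 or more sequences, against 2.41% of those found in 1 mouse. Clonotypes of more mice are counted over more libraries, so the same was taken within mice. Within 1 mouse the means were 2.08 ± 0.29 and 1.02 ± 0.01, and at 3 to 10 UMIs the difference was 0.645 ± 0.206, higher in 4 of 4 mice (exact 2-sided sign-flip permutation test, p = 0.125, the smallest possible).

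Against the mutants, the number of TRAV segments called depended on how UMIs were counted and scaled. Of 81 TRAV segments tested by edgeR, 1 differed between wt and Il2° (1.23% of those tested). DESeq2 called 3 higher and 1 lower, and edgeR with each clonotype counted once called 8 higher and 1 lower of 69. The 1 segment was TRAV4D-3, at 18.1%, 17.9%, 21.7% and 18.4% in wt and 13.7%, 10.5%, 14.3% and 13.6% in Il2° replicates 1 to 4, without overlap. With TMM scaling it was higher in wt by 0.75 on the log2 scale (SE 0.13, edgeR adjusted p = 0.00081). Scaled by library totals alone, which compares the shares themselves, it was higher by 0.55 (edgeR adjusted p = 0.0091), with 1 other segment called lower, and the median over all 81 segments moved from -0.04 to -0.27. With each clonotype counted once TRAV4D-3 was higher by 0.38. As TRAV4N-3 has the same coding sequence, use of the copies and assignment of the names cannot be told apart in this difference. It is not given here for the copies joined under 1 name. Without Il2° replicate 1, which is linked with wt replicates 2 and 3, 7 segments were called higher. Against Il15° edgeR called 0 of 81 (0%), with 9 at an unadjusted p under 0.05 and 1 called by DESeq2, and TRAV4D-3 was at 17.2% ± 2.5 there (log2 0.16, SE 0.13, edgeR adjusted p = 0.69).

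Of 43 TRAJ segments, 4 were higher in wt than in Il2° (9.30% of those tested). These were TRAJ37 (5.89% ± 0.61 against 4.52% ± 0.29, log2 0.40, SE 0.11), TRAJ24 (1.03% ± 0.08 against 0.694% ± 0.073, log2 0.59, SE 0.18), TRAJ32 (2.33% ± 0.24 against 1.76% ± 0.18, log2 0.42, SE 0.13) and TRAJ22 (5.83% ± 1.10 against 4.56% ± 0.52, log2 0.38, SE 0.12), all at an edgeR adjusted p of 0.0175. TRAJ22 alone overlapped between the groups. None of the 4 was called without wt replicate 3, wt replicate 4, Il2° replicate 2 or Il2° replicate 3, nor with each clonotype counted once. Against Il15°, 2 of 43 were higher in wt (4.65%). TRAJ32 was at 2.11%, 2.16%, 2.64% and 2.43% in wt and 1.67%, 1.66%, 0.986% and 1.68% in Il15° (log2 0.62, SE 0.13, edgeR adjusted p = 0.00016), without overlap. With each clonotype counted once its log2 difference was 0.27 and neither TRAJ32 nor TRAJ52, the other of the 2, was called (edgeR adjusted p = 0.38 and 0.098). TRAJ52, at 0.558% ± 0.152 against 0.297% ± 0.115 (log2 0.86, SE 0.27, edgeR adjusted p = 0.037), overlapped between the groups and was not called without wt replicate 1, wt replicate 2, Il15° replicate 2 or Il15° replicate 3. Both comparisons use the same wt libraries.

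Of 7 summaries of the repertoire, compared with each mutant in 14 exact 2-sided Mann-Whitney tests, none passed the adjustment. The mean V distance from the J cluster was 975 kb ± 13 in wt and 949 kb ± 13 in Il2°, with all wt mice above all Il2° mice (exact Mann-Whitney p = 0.0286, the smallest possible, adjusted p = 0.40). This distance goes by the V name, and TRAV4D-3 and TRAV4N-3, with the same coding sequence, lie at 1255 and 944 kb. Use of these copies and assignment of their names cannot be told apart in it. Mean CDR3 length was 13.12 ± 0.02 residues in wt, 13.12 ± 0.03 in Il2° and 13.13 ± 0.007 in Il15°, and the 100 largest clonotypes held 26.6% ± 1.6, 27.2% ± 2.2 and 28.3% ± 1.9 (exact Mann-Whitney tests, adjusted p = 0.74 for each of the 4 differences).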

How the data were processed

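The Tcra libraries were made by 5′ template switching with a UMI and sequenced by the authors on a MiSeq. They filtered reads at a quality of 20, built a consensus per UMI from at least 2 reads with pRESTO, named the segments of each sequence by MiXCR and deposited VDJtools tables. The submitters' processing notes name build mm10, and the versions of the tools are not given in the sources used here. The deposited counts are UMIs per sequence without normalization or pooling of mice, and the deposited fraction is that count over the total of the library.

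UMI counts were used as deposited, from all sequences for V and J usage and overall CDR3 length. In-frame sequences alone were used for residues and for CDR3 length per J segment. TRAJ7, TRAJ44 and TRAJ47 (3.02% of UMIs) were nearly always marked out of frame in the tables. Segments were placed by name on GRCm38, where 102 of 104 V names (98.4% of UMIs) were found. Usage was compared with edgeR 4.0.16 (R 4.3.3, all 12 libraries, TMM, at least 10 UMIs in at least 4 libraries, Benjamini-Hochberg, threshold 0.05). V-J pairs were tested in wt with the log of the product of the shares as offset. Named were the 10 leading TRAV, TRAJ and clonotypes, the end segments of the V array, J segments under 0.1%, the 10 highest and 5 lowest pairs and segments called against a mutant. On simulated data with 200 of 775 pairs changed 4-fold, 191 were recovered with 6 false calls. With 10 of 81 TRAV changed 2-fold, 8 were recovered against Il2° and 5 against Il15° without false calls. With 10 of 43 TRAJ changed all 10 were recovered, with 1 and 2 false calls. The simulated libraries were drawn independently with 1 spread for all features, and the expected UMIs of the pairs were kept fixed. The false calls among simulated pairs therefore do not cover pairs moved by arithmetic or libraries linked by shared sequences. DESeq2 1.42.0 and limma 3.58.1 served for alternatives, and all other values came from Python 3.11.15 (scipy 1.17.1, numpy 2.4.6, pandas 2.3.3). The mice are individual animals. The segments, lists and tests were chosen with earlier results of these data known.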

Additional observations from a re-analysis of the deposited data

Results flagged for a closer look

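A test for a single sample that lies apart from the other 3 of its group (Dixon's ratio, 95% level) was applied to 113 wt measures, and 9 were marked. Chance marks about 1 in 20 such groups. In 6 of the marked measures wt replicate 3 stood apart as the highest mouse and in 1 as the lowest. It had 21.7% TRAV4D-3 (17.9% to 18.4% in the others), 6.80% TRAJ37 (5.51% to 5.73%) and 1.76% of the TRAV4D-3-TRAJ37 clonotype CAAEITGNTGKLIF (0.924% to 1.03%). These 3 are not independent, since the clonotype is counted in both segments. The 10 largest clonotypes held 9.23% in this mouse (7.76% to 7.95%), its mean V distance was 994.7 kb (965.8 to 969.2 kb), isoleucine made up 1.02% of its central residues (0.848% to 0.866%) and CDR3 of 11 residues 7.94% (8.43% to 8.50%). wt replicate 3 also had the fewest UMIs of the 4, and a link of the values with depth was not tested. In wt replicate 1, the TRAV4D-3-TRAJ34 clonotype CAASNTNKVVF held 0.589% (0.375% to 0.407%). In wt replicate 2, TRAV6D-5-TRAJ16 was at 5.96 times the product of the shares (9.55 to 10.2 times in the others).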

How the results depend on the processing

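Counting each clonotype once moved the share of the 10 leading TRAV to 51.3% and of the 10 leading TRAJ to 50.5%, mean CDR3 length to 13.24 residues and the hydrophobic share of the centre, as a mean over CDR3, to 22.7%. It gave 42 higher and 70 lower V-J pairs, 8 higher and 1 lower TRAV and 0 TRAJ against Il2°, and 0 TRAJ against Il15°. The differences from Il2° in CDR3 length and inserted bases, -0.0040 and -0.0032 as reported, became 0.033 and 0.050. Merging D and N copies gave 72.4% for the 10 leading TRAV, and in-frame sequences alone gave 61.4% for the 10 leading TRAJ and a length of 13.08. Residues 6 and 7 alone were 16.5% hydrophobic. With clonotypes by nucleotides the 100 largest held 18.3%, and 923.75 clonotypes on average held 50%.

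For V-J pairs, DESeq2 called 63 higher and 0 lower, with no adjusted p for most pairs, limma 369 lower, a mean of at least 20 expected UMIs gave 49 higher, no filter 290 higher and 91 lower, and shared single UMIs left out (chosen after seeing the data, as were inserted bases by exact germline match) 99 lower. Each wt library left out gave 31 to 88 lower pairs. Against Il2°, DESeq2 called 3 higher and 1 lower TRAV and 2 TRAJ, library totals in place of TMM 1 lower TRAV, and against Il15° DESeq2 called 1 TRAV and shared single UMIs left out 1 TRAJ. The replicate block, with the number of the labels as a term, called 3 TRAV and 2 TRAJ against Il2° and 1 TRAJ against Il15°. The numbers did not pair the mice, as same-number correlations of deviations ran from -0.15 to 0.18, and 1 of 12 libraries correlated best with its own number.

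With 1 library left out, higher calls against Il2° ranged from 1 to 7 for TRAV and 0 to 5 for TRAJ, with up to 1 lower each, and against Il15° from 0 to 1 for TRAV and 1 to 2 for TRAJ. The differences from Il2° then ranged from -0.0154 to 0.0060 residues in CDR3 length, -0.0461 to 0.0297 in inserted bases and -1.24 to 0.0530 percentage points in the share of the 100 largest clonotypes. The V distance between J windows ranged from -17.5 to 2.71 kb, and the length difference of shared clonotypes was 0.0360 at 3 to 10 UMIs. Depth limits calls on rare segments and pairs, since 2010 of the 4576 possible pairs had a UMI.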

Other observations

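Across the 50 V segments with at least 200 UMIs in wt, the distance from the J cluster and the mean number of the J segment joined had a Pearson r of -0.283 and a Spearman rho of -0.181. Among the 7 of them without a D or N copy, r was -0.846 and rho -0.536. These are descriptions across segments of the same 4 libraries, which are not independent replicates. After the clonotype TRAV4D-4 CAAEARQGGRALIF TRAJ15, the clonotypes encoded in the most ways were TRAV4D-3 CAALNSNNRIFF TRAJ31 with 15 nucleotide sequences and 198 UMIs, TRAV4D-3 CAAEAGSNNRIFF TRAJ31 with 14 and 177 UMIs, and TRAV6D-7 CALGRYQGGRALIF TRAJ15 and TRAV12N-3 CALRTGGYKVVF TRAJ12 with 12 each. All of them were found in 4 of 4 mice.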
